A study of Mus musculus with 8 samples.

Results

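The genes described here are 9 members of the ADAMTS family, *Adamts1*, *Adamts2*, *Adamts4*, *Adamts5*, *Adamts7*, *Adamts9*, *Adamts10*, *Adamts12* and *Adamts15*, as measured by RNA-seq in visceral white adipose tissue (vWAT) of KIKO and WT mice. They were chosen by symbol and found through their Ensembl identifiers, and they are 9 of the 31053 genes in the count table. Of the 11080 genes with enough counts to be tested, 8 are members; *Adamts7* had too few counts. KIKO mice are a genetic model of Friedreich's ataxia, and their controls were WT mice of the C57BL/6 strain. Each group had 4 male mice aged 8 months, for which the labels name no treatment, with 1 library per mouse, and the sample titles call the depot EWAT (epididymal) while the tissue label calls it visceral. Mice are named by genotype and by the number in their sample title.

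ADAMTS proteases are secreted zinc metalloproteases whose thrombospondin repeats and other ancillary domains bind them to the extracellular matrix. They are made as inactive proenzymes, lose their propeptide to furin-like convertases, and are held in check by tissue inhibitors, mainly TIMP3. Their substrates set them apart: the proteoglycanases ADAMTS1, 4, 5, 9 and 15 cleave versican or aggrecan, ADAMTS2 trims the N-propeptide of fibrillar procollagens, ADAMTS7 and ADAMTS12 cleave cartilage oligomeric matrix protein (COMP), and ADAMTS10 binds fibrillin microfibrils. In adipose tissue this remodelling of the matrix goes with the growth of fat cells and vessels.

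In vWAT of KIKO mice, none of the 8 tested members passed an adjusted p of 0.05 (edgeR's quasi-likelihood test, Benjamini-Hochberg adjustment over all genes tested), where 75 genes or 0.677% of all genes tested did. The share called lower in KIKO mice was 0.397% of all genes tested and 0 of the 8 members. The members closest to the threshold were *Adamts12* and *Adamts9*, both at an adjusted p of 0.0955 in edgeR, with levels 38.9% and 35.5% lower in KIKO mice by the fitted fold change. At an unadjusted p under 0.05, 3 of the 8 (*Adamts4*, *Adamts9* and *Adamts12*) were lower in KIKO mice, against 9.06% of all genes tested. DESeq2 called 1 member (*Adamts12*) of the 7 with an adjusted p, and 260 of the 6616 genes with an adjusted p. No member was called by limma-voom or limma-trend. The fold change was below 1 for 8 of 8 members, against 51.0% of all genes tested, and the median of their log2 fold changes was -0.46, beside -0.01 over all genes tested. This median was -0.20 without WT 1. The call rested on single mice in both directions: without WT 3, 2 members (*Adamts9* and *Adamts12*) and 654 genes in all were called, whereas without KIKO 4, WT 2 or WT 4 in turn no gene was called. The plot of fold changes shows each member with its interval.

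**Figure D1:**
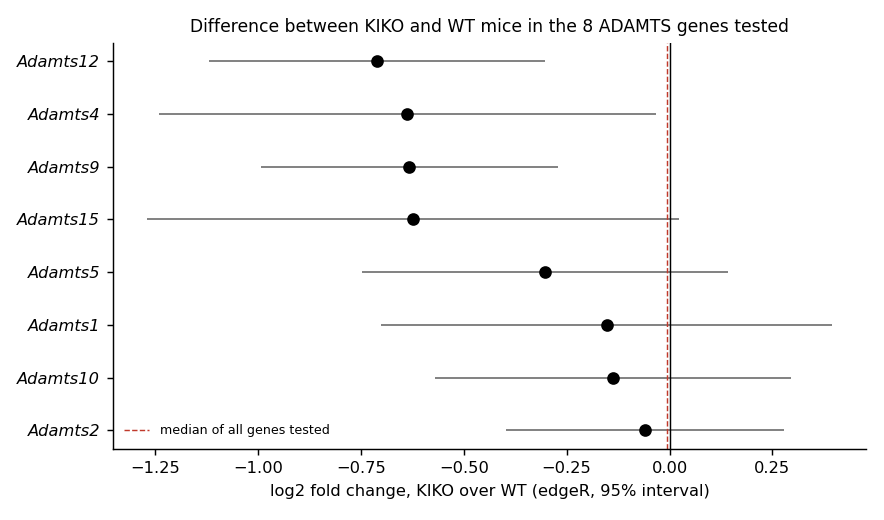
Log2 fold change of KIKO over WT mice (horizontal axis) for the 8 ADAMTS genes tested, with points for edgeR's estimate from 4 mice per group, bars for the 95% interval and a dashed line for the median of all genes tested at -0.01. All 8 points lie left of 0, from -0.71 for *Adamts12* to -0.06 for *Adamts2*, and the intervals of *Adamts12*, *Adamts4* and *Adamts9* do not reach 0.

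Library totals ranged from 2602189 to 3478539 counts, and the lowest count of a tested member in any library was 18. CPM stands for counts scaled to a common library size with TMM factors. The share of mitochondrially encoded counts was 9.93% to 10.6% in KIKO mice and 6.91% to 10.7% in WT mice. On the first principal component, WT 3 (12.6) lay among the KIKO mice (4.04 to 24.0) and apart from the other WT mice (-38.6 to -8.43). Long transcripts were relatively lower in KIKO libraries: the rank correlation (rho) over genes of transcript length with a library's level, centred on all 8, was -0.214 to -0.0843 in KIKO mice and -0.11 to 0.262 in WT mice, and genes are not independent replicates. The longest transcript of each tested member has 4121 bases or more, against a median of 3471 bases over all genes tested. Among the 4185 tested genes with a longest transcript of at least 4121 bases, that of the shortest member, the median log2 fold change was -0.09 and 63.8% were below 0. After each library was corrected for its trend on length and base composition of the transcripts, the median of the 8 members was -0.31. The part of transcript length in the members' values was not tested further.

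Per kilobase of the longest annotated transcript, *Adamts5* had the highest mean level in both groups and *Adamts7* the lowest. In descending order the mean CPM per kilobase in KIKO mice was 27.3 for *Adamts5*, 11.9 for *Adamts2*, 7.49 for *Adamts10*, 7.36 for *Adamts1*, 4.09 for *Adamts12*, 2.59 for *Adamts9*, 2.46 for *Adamts15*, 1.51 for *Adamts4* and 0.289 for *Adamts7*. On this scale WT mice had the same order, at 33.7 for *Adamts5*, 12.4 for *Adamts2*, 8.29 for *Adamts10*, 8.14 for *Adamts1*, 6.64 for *Adamts12*, 4.02 for *Adamts9*, 3.74 for *Adamts15*, 2.33 for *Adamts4* and 0.318 for *Adamts7*. The aggrecanase *Adamts5* thus stood first and the other classical aggrecanase, *Adamts4*, last among the tested members. Neighbours such as *Adamts10* and *Adamts1* overlapped in their ranges over KIKO mice (5.33 to 11.0 and 5.84 to 9.0 CPM per kilobase), as did *Adamts9* and *Adamts15* (2.06 to 3.13 and 1.84 to 3.71). Dividing by length presumes reads along whole transcripts. By CPM without that division *Adamts5* and *Adamts2* still came first and *Adamts4* and *Adamts7* last, but the middle differed: *Adamts1* (35.9 CPM), *Adamts12* (35.1 CPM) and *Adamts10* (30.9 CPM) followed in KIKO mice, and *Adamts12* (56.9 CPM), *Adamts1* (39.8 CPM) and *Adamts10* (34.1 CPM) in WT mice. The study's methods name a stranded mRNA kit, whereas the sample labels name a digital mRNA-seq service, so this was not settled here.

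Among the proteoglycanases, *Adamts9* was the member whose groups did not overlap. *Adamts9* (ENSMUSG00000030022, GRCm38 chromosome 6, 92772699 to 92943492, minus strand) encodes a versican-cleaving protease. It had 25.1, 20.0, 16.5 and 21.4 CPM in KIKO mice 1 to 4, against 36.8, 29.1, 26.8 and 36.2 CPM in WT mice 1 to 4. Every KIKO mouse was below every WT mouse, with KIKO 1 (25.1 CPM) the nearest to the lowest WT mouse, WT 3 (26.8 CPM). A lack of overlap in this direction was seen for 1 of the 8 members and for 4.56% of all genes tested. *Adamts9* averaged 20.7 ± 3.54 CPM in KIKO mice and 32.2 ± 5.03 CPM in WT mice (SD, n = 4 each), or -0.63 as log2 fold change (SE 0.17, 95% interval -0.99 to -0.27, adjusted p = 0.0955 from edgeR). An exact 2-sided permutation test of 4 against 4 mice gave p = 0.0286, the smallest value it can give. With 1 mouse left out the log2 fold change of *Adamts9* lay between -0.74 and -0.53 and its adjusted p from edgeR between 0.028 and 0.250, passing only without WT 3; with no filter on low counts it also passed (adjusted p = 0.0399). With the correction for length and base composition of the transcripts, *Adamts9* had a log2 fold change of -0.51 (adjusted p = 0.18 from edgeR). Its counts were 50 to 76 per library in KIKO mice and 80 to 116 in WT mice. On the opposite strand, the antisense RNA 9530026P05Rik overlaps *Adamts9* by 3164 bases and held 227 counts in all (log2 fold change -0.55, SE 0.31), and whether the counting used strand is not given in the sources used here.

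**Figure D2:**
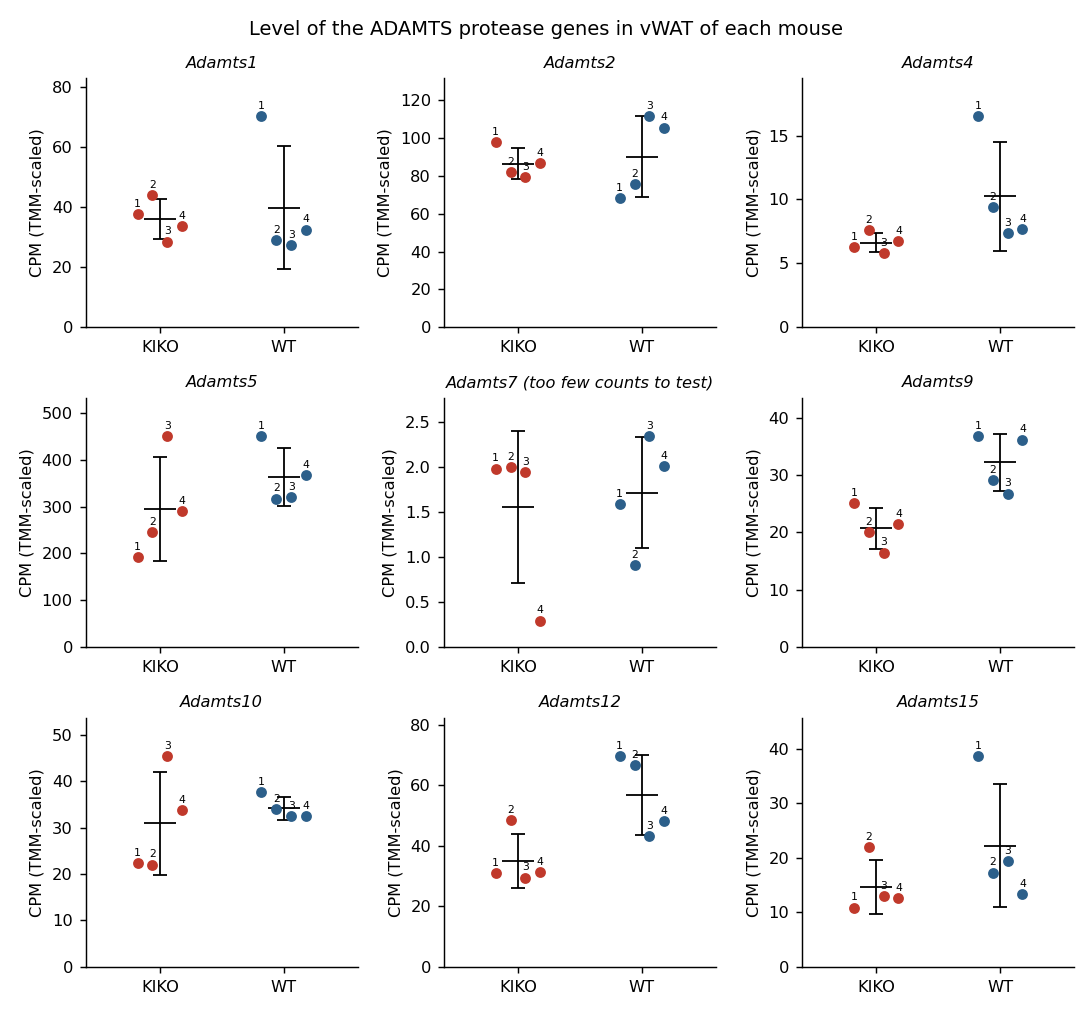
Level of each of the 9 ADAMTS genes in vWAT, as TMM-scaled CPM on an axis from 0 (vertical), with 1 numbered point per mouse, KIKO left and WT right, and lines for the mean and SD of 4 mice. *Adamts9* is the gene whose groups do not overlap (16.5 to 25.1 CPM in KIKO mice, 26.8 to 36.8 CPM in WT mice), and WT 1 stands above the other WT mice for *Adamts1*, *Adamts4* and *Adamts15*.

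*Adamts4* (ENSMUSG00000006403, GRCm38 chromosome 1, 171250421 to 171260637, plus strand), the aggrecanase first purified from cartilage, was the lowest of the tested members. Its level was 6.27, 7.59, 5.83 and 6.74 CPM in KIKO mice 1 to 4, against 16.5, 9.39, 7.36 and 7.70 CPM in WT mice 1 to 4. In 3 of 4 KIKO mice it was below the lowest WT mouse, and WT 1 was high, at 2.02 times the mean of the other WT mice. The means were 6.61 ± 0.754 CPM in KIKO mice and 10.2 ± 4.26 CPM in WT mice (SD, n = 4 each), with a log2 fold change of -0.64 (SE 0.28, 95% interval -1.24 to -0.03, adjusted p = 0.279 from edgeR; exact permutation p = 0.0571). Without WT 1 the log2 fold change of *Adamts4* was -0.31. The values rest on 18 to 23 counts per library in KIKO mice and 22 to 52 in WT mice.

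*Adamts15* (ENSMUSG00000033453, GRCm38 chromosome 9, 30899155 to 30922452, minus strand), another proteoglycanase able to cleave versican, had 10.9, 22.0, 13.0 and 12.6 CPM in KIKO mice 1 to 4, against 38.7, 17.3, 19.4 and 13.4 CPM in WT mice 1 to 4. KIKO 2 and WT 1 stood high in their groups, and the groups overlapped through KIKO 2. *Adamts15* averaged 14.6 ± 5.0 CPM in KIKO mice and 22.2 ± 11.3 CPM in WT mice (SD, n = 4 each), or -0.62 as log2 fold change (SE 0.30, adjusted p = 0.329 from edgeR; exact permutation p = 0.257). That fold change was -0.21 on the log2 scale without WT 1 and -0.87 without KIKO 2.

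*Adamts1* and *Adamts5* lie side by side on chromosome 16 with 53059 bases between them, both on the minus strand. *Adamts1* (ENSMUSG00000022893, GRCm38 chromosome 16, 85793827 to 85803113) encodes a versicanase that is also known to bind VEGF and restrain vessel growth. It had 37.6, 44.0, 28.5 and 33.7 CPM in KIKO mice 1 to 4, against 70.1, 29.1, 27.4 and 32.5 CPM in WT mice 1 to 4, so that WT 1 stood alone and the other 7 mice overlapped. The means were 35.9 ± 6.52 CPM in KIKO mice and 39.8 ± 20.3 CPM in WT mice (SD, n = 4 each), and the log2 fold change was -0.15 (SE 0.26, 95% interval -0.70 to 0.40, adjusted p = 0.814 from edgeR; exact permutation p = 0.943). Without WT 1 it changed sign, to 0.27.

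The neighbouring *Adamts5* (ENSMUSG00000022894, GRCm38 chromosome 16, 85856173 to 85901828), the main aggrecanase of mouse cartilage, was the most abundant member. It had 192.8, 245.8, 450.3 and 290.6 CPM in KIKO mice 1 to 4, against 450.5, 317.1, 320.3 and 367.7 CPM in WT mice 1 to 4. Although 3 of 4 KIKO mice were below the lowest WT mouse, KIKO 3 was as high as WT 1. Over all mice *Adamts5* averaged 294.8 ± 111.1 CPM in KIKO mice and 363.9 ± 62.2 CPM in WT mice (SD, n = 4 each), with a log2 fold change of -0.30 (SE 0.21, 95% interval -0.75 to 0.14, adjusted p = 0.506 from edgeR; exact permutation p = 0.229). Leaving out KIKO 3 gave -0.58, and leaving out KIKO 1, the lowest mouse, gave -0.14. With the correction for length and base composition of the transcripts, the fold change of *Adamts5*, which has the longest transcript of the members, was -0.11 on the log2 scale.

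*Adamts2* (ENSMUSG00000036545, GRCm38 chromosome 11, 50602084 to 50807573, plus strand), the procollagen N-proteinase, did not follow the pattern of WT 1. Its level was 97.7, 81.9, 79.4 and 86.7 CPM in KIKO mice 1 to 4, against 68.2, 75.7, 111.4 and 105.5 CPM in WT mice 1 to 4. The KIKO values sat inside the WT range, whose lowest mouse was WT 1. The means were 86.4 ± 8.11 CPM in KIKO mice and 90.2 ± 21.5 CPM in WT mice (SD, n = 4 each), and the log2 fold change of -0.06 (SE 0.16, 95% interval -0.40 to 0.28, adjusted p = 0.886 from edgeR; exact permutation p = 0.886) changed sign without WT 3 (0.06) or WT 4 (0.02).

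*Adamts12* had the most negative fold change of the members. *Adamts12* (ENSMUSG00000047497, GRCm38 chromosome 15, 11064790 to 11349231, plus strand) encodes a protease that degrades COMP. It had 31.0, 48.4, 29.5 and 31.3 CPM in KIKO mice 1 to 4, against 69.7, 66.6, 43.2 and 48.2 CPM in WT mice 1 to 4. The groups overlapped through KIKO 2 alone, which lay above WT 3 and WT 4, while the other 3 KIKO mice were below every WT mouse. *Adamts12* averaged 35.1 ± 8.91 CPM in KIKO mice and 56.9 ± 13.2 CPM in WT mice (SD, n = 4 each), or -0.71 as log2 fold change (SE 0.19, 95% interval -1.12 to -0.30, adjusted p = 0.0955 from edgeR; exact permutation p = 0.0857). It passed in DESeq2 (log2 fold change -0.70, adjusted p = 0.0353), in edgeR with no filter on low counts (adjusted p = 0.0108) and in edgeR without WT 3 (-0.82, adjusted p = 0.0213). It did not pass in limma-voom (adjusted p = 0.101). Nor did it in edgeR with the correction for length and base composition of the transcripts (-0.56, adjusted p = 0.163). With any 1 mouse left out its log2 fold change ranged from -0.89 to -0.60 and its adjusted p from edgeR from 0.0213 to 0.270.

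*Adamts7* (ENSMUSG00000032363, GRCm38 chromosome 9, 90163069 to 90208071, plus strand), the close relative of *Adamts12*, was near the limit of detection. It had 6, 5, 6 and 1 counts in KIKO mice 1 to 4, against 5, 3, 7 and 6 counts in WT mice 1 to 4, 18 against 21 counts in all, and the groups overlapped. It was removed by the filter on low counts. With no filter its log2 fold change was -0.16 (SE 0.59, adjusted p = 0.928 from edgeR), so that a difference of the size seen for *Adamts12* was not detectable at this depth. Its gene overlaps *Tbc1d2b* on the opposite strand by 6045 bases.

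*Adamts10* (ENSMUSG00000024299, GRCm38 chromosome 17, 33524204 to 33553782, plus strand), whose product binds fibrillin-1 and whose human mutations cause Weill-Marchesani syndrome, varied more within the KIKO group than within the WT group. It had 22.4, 22.0, 45.4 and 33.7 CPM in KIKO mice 1 to 4, against 37.7, 33.9, 32.5 and 32.5 CPM in WT mice 1 to 4. KIKO 3 was the highest of the 8 mice and KIKO 1 and KIKO 2 were the lowest, around a narrow WT group. The means were 30.9 ± 11.1 CPM in KIKO mice and 34.1 ± 2.48 CPM in WT mice (SD, n = 4 each), with a log2 fold change of -0.14 (SE 0.20, 95% interval -0.57 to 0.29, adjusted p = 0.785 from edgeR; exact permutation p = 0.371). It was -0.38 without KIKO 3, -0.0085 without KIKO 1 and -0.0123 without KIKO 2.

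Across the members, single mice carried much of the spread. WT 1 was the highest of the 8 mice for 6 of the 8 tested members, at 2.36 times the mean of the other WT mice for *Adamts1*, 2.32 times for *Adamts15* and 2.02 times for *Adamts4*, against 1.20 times for *Adamts9* and 1.32 times for *Adamts12*. For *Adamts2* it was the lowest, at 0.699 times. WT 1 also had the lowest mitochondrial share of all libraries (6.91%) and the highest rho of level with transcript length (0.262), and the part of these in its ADAMTS values was not tested. KIKO 3 was high for *Adamts5* and *Adamts10*, whereas it was the lowest KIKO mouse for *Adamts1*, *Adamts2*, *Adamts4*, *Adamts9* and *Adamts12*. The relative levels by mouse and the fold changes with 1 mouse left out show these mice.

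**Figure D3:**
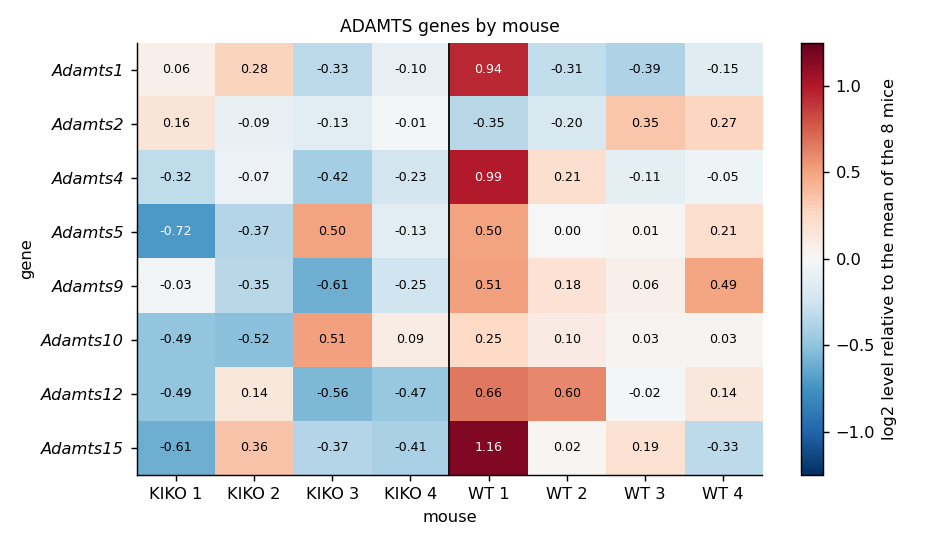
Level of the 8 tested ADAMTS genes (rows) in each mouse (columns, KIKO left of the black line, WT right), as log2 relative to the mean of the 8 mice, red above and blue below that mean. WT 1 has the deepest red for *Adamts15* (1.16), *Adamts4* (0.99) and *Adamts1* (0.94), and KIKO 3 is red for *Adamts5* (0.50) and *Adamts10* (0.51) and blue for the other 6.

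**Figure D4:**
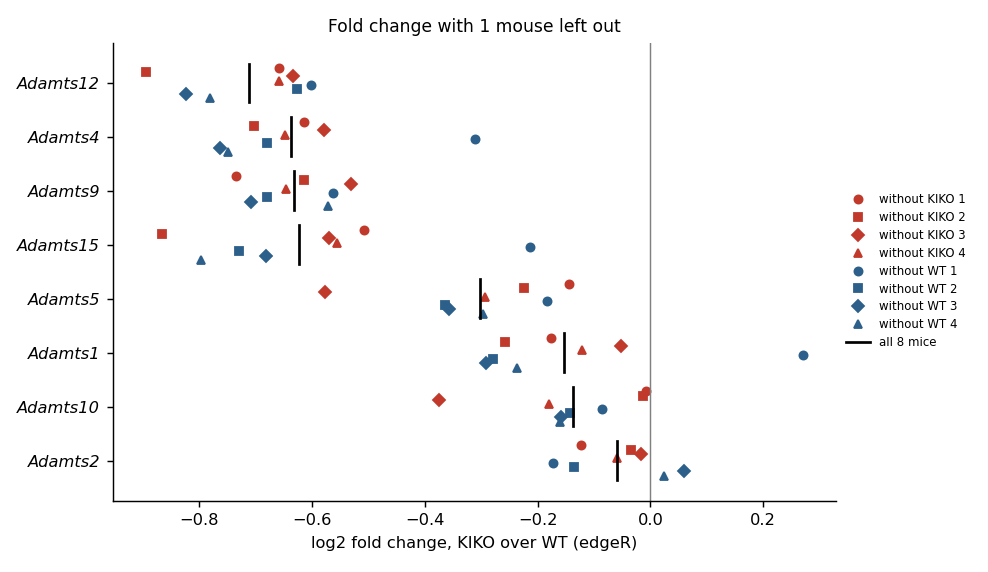
Log2 fold change of KIKO over WT mice (horizontal axis) for each tested ADAMTS gene from edgeR fits on all 8 mice (black line) and with 1 mouse left out (red symbols a KIKO mouse, blue symbols a WT mouse). *Adamts9* (-0.74 to -0.53) and *Adamts12* (-0.89 to -0.60) stay away from 0, while *Adamts1* changes sign without WT 1 (0.27) and *Adamts2* without WT 3 (0.06) or WT 4 (0.02).

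For the 3 members with the smallest p, the genes most alike in pattern over the 8 mice were looked up among 11079 others by Pearson's r of log2 CPM, as a description. *Adamts12* was most like *Lifr*, the receptor of leukaemia inhibitory factor (r = 0.991), *Tango6* (0.979) and *Arhgap26* (0.976). *Adamts9* was most like *Nub1* (r = 0.955), the histone gene *H3f3a* (0.948) and *Ccm2l* (0.947), a gene of the endothelial CCM pathway. *Ccm2l* was itself lower in KIKO mice (11.9 CPM in KIKO mice, 29.5 CPM in WT mice, log2 fold change -1.30, SE 0.20, adjusted p = 0.0255 from edgeR), a call that was lost without KIKO 4 (adjusted p = 0.145), WT 2 (0.102) or WT 4 (0.0971). *Adamts4* was most like *Tinagl1* (r = 0.974), *Cask* (0.972) and *Tent5a* (0.972), and the first of these was 0.771 when the 2 mice farthest from the median of *Adamts4* were left out. All these points share their libraries and depth, and the highest r among so many genes is high by the choice itself.

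Of the 10 other ADAMTS genes none had enough counts to be tested. In all 8 libraries together *Adamts14* and *Adamts3*, which share the N-proteinase role of *Adamts2*, had 46 and 6 counts, and *Adamts6*, the relative of *Adamts10*, had 29. *Adamts16* had 46 counts, *Adamts19* 19, *Adamts8* 13, *Adamts18* 7, *Adamts20* 4, *Adamts17* 1 and *Adamts13*, which cleaves von Willebrand factor, 0. Summed over these genes the level was 3.30 to 6.39 CPM in KIKO mice and 6.69 to 12.4 CPM in WT mice, against 425.8 to 670.3 CPM in KIKO mice and 579.0 to 789.7 CPM in WT mice for the 9 members. Of the ADAMTS-like proteins, which hold the ancillary domains without the protease, 4 of 7 were tested and none passed, with a median log2 fold change of -0.48. *Adamtsl1* had 24.4 ± 10.9 CPM in KIKO mice and 35.2 ± 10.9 CPM in WT mice (SD, n = 4 each). Its log2 fold change was -0.54 (SE 0.29), that of *Adamtsl5* was -0.41 (SE 0.21) and that of *Adamtsl2* -0.65 (SE 0.48).

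Among the proteoglycans that ADAMTS proteases cleave and their hyaluronan partners, 7 of 15 genes were tested, 1 was higher in KIKO mice and 0 lower, and the median log2 fold change was 0.41. The gene that rose was *Fmod*, encoding fibromodulin, a small leucine-rich proteoglycan on collagen fibrils. *Fmod* had 65.4, 80.7, 47.3 and 67.7 CPM in KIKO mice 1 to 4, against 46.6, 34.8, 36.8 and 32.8 CPM in WT mice 1 to 4, and every KIKO mouse was above every WT mouse (log2 fold change 0.78, SE 0.17, adjusted p = 0.0475 from edgeR). The call on *Fmod* was lost without KIKO 1 (adjusted p = 0.128), KIKO 2 (0.0906), KIKO 4 (0.195), WT 2 (0.159) or WT 4 (0.157), with library totals in place of TMM, after correction for transcript length and base composition, and in limma-voom and limma-trend. Decorin (*Dcn*, log2 fold change 0.41, SE 0.13) and lumican (*Lum*, 0.43, SE 0.15) did not pass, though their groups did not overlap. The share of all genes tested with every KIKO mouse above every WT mouse is not given here, so this lack of overlap has no baseline. The textbook substrates and *Ncan* were named here after their values were seen. *Vcan*, encoding versican, had a log2 fold change of -0.28 (SE 0.21) and *Acan*, encoding aggrecan, had 0 counts in all libraries. *Ncan*, encoding neurocan, had -1.29 (SE 0.52, adjusted p = 0.235 from edgeR) from 1 to 33 counts per library, with groups that overlapped. *Vcan* and *Ncan* were the 2 of the 7 tested genes below 0.

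For the fibrillar collagens and their processing, the setting of *Adamts2*, 9 of 11 genes were tested and none passed, with a median log2 fold change of -0.04. The procollagen C-proteinase enhancer *Pcolce* had 76.3 ± 14.1 CPM in KIKO mice and 48.8 ± 2.66 CPM in WT mice (SD, n = 4 each), or 0.64 as log2 fold change (SE 0.14, adjusted p = 0.0593 from edgeR). Its relative *Pcolce2* had a log2 fold change of 0.53 (SE 0.14, adjusted p = 0.0841 from edgeR), and *Col5a3*, a minor fibrillar collagen chain, -0.51 (SE 0.23). Around *Adamts12* and *Adamts7*, 3 of 5 genes for COMP and thrombospondins were tested and none passed: *Thbs3* had 0.35 (SE 0.21), *Thbs1* -0.29 (SE 0.41) and *Thbs2* -0.13 (SE 0.46) as log2 fold change, and COMP itself had too few counts. Around *Adamts10*, 8 of 10 fibrillin microfibril genes were tested, none passed and the median was -0.16. Groups did not overlap for *Ltbp3*, which stores latent TGF-beta in the matrix (log2 fold change -0.59, SE 0.14, adjusted p = 0.0698 from edgeR), for *Eln*, encoding elastin (-0.79, SE 0.20, adjusted p = 0.0782), and for *Ltbp2* (-0.51, SE 0.22). A lack of overlap in this direction was thus seen for 3 of the 8 genes and for 4.56% of all genes tested.

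Of the inhibitors and clearance receptors, 7 of 9 genes were tested and none passed, with a median log2 fold change of -0.07. *Timp3*, the inhibitor of the aggrecanases, had 392.4, 454.8, 349.5 and 385.2 CPM in KIKO mice 1 to 4, against 838.5, 620.8, 495.0 and 583.7 CPM in WT mice 1 to 4. Every KIKO mouse was below every WT mouse, with a log2 fold change of -0.68 (SE 0.16, adjusted p = 0.0642 from edgeR), close to that of *Adamts9* and *Adamts12*. A lack of overlap in this direction was seen for 1 of the 7 tested genes of this list and for 4.56% of all genes tested. *Timp1* had a log2 fold change of -0.46 (SE 0.36) and *Lrp1*, the endocytic receptor that clears ADAMTS5, 0.19 (SE 0.17). Of the proprotein convertases, which activate ADAMTS proenzymes, 4 of 4 were tested and none passed, with *Pcsk6* at 0.48 (SE 0.14), *Pcsk7* at -0.32 (SE 0.27) and *Pcsk5* at -0.24 (SE 0.26). Of the genes of the related membrane-bound ADAM family, not all of which are active proteases, 9 of 10 were tested and none passed, and the median was -0.05. Among them *Adam23* had a log2 fold change of -0.57 (SE 0.23), *Adam19* -0.36 (SE 0.21) and *Adam10* 0.22 (SE 0.14).

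**Figure D5:**
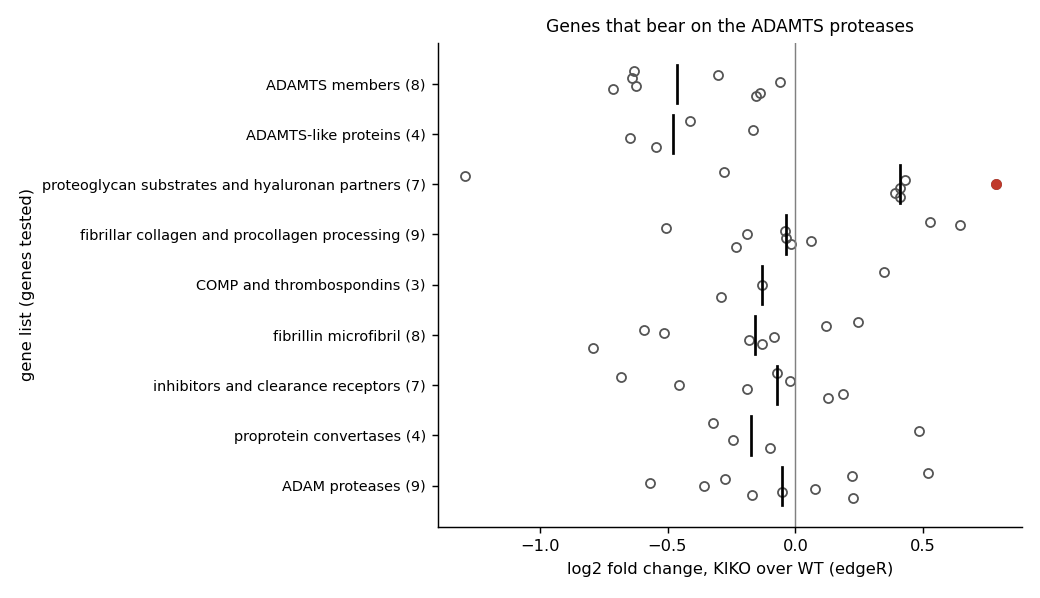
Log2 fold change of KIKO over WT mice (horizontal axis) from edgeR for the tested genes of each list (rows, with the number tested), 1 circle per gene, filled red where the gene passed, with a black line at the median. The medians of the ADAMTS members (-0.46) and ADAMTS-like proteins (-0.48) lie left of 0 and that of the proteoglycans (0.41) right of it, and *Fmod* (0.78) is the filled circle.

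Markers of several cell types also stood lower or higher in KIKO mice, and in bulk tissue fewer cells of a type and less RNA per cell cannot be told apart. The 6 endothelial markers summed to 399.2 to 661.2 CPM in KIKO mice and 589.4 to 769.4 CPM in WT mice, with 6 of 6 log2 fold changes below 0, a median of -0.34 and none passed (*Pecam1* -0.34, *Tek* -0.37, *Kdr* -0.32). WT 1, high for most members, had the highest endothelial sum (769.4 CPM) and the lowest mural sum of the WT mice (524.3 CPM). The endothelial list was not alone in this. WT 1 also had the highest sum of the WT mice for the markers of adipose stromal cells (2606.4 CPM) and of mesothelial cells (335.4 CPM). The 6 mural markers summed to 394.4 to 536.3 CPM in KIKO mice and 524.3 to 572.4 CPM in WT mice, with 6 of 6 below 0, a median of -0.55 and none passed (*Myh11* -0.58, *Cspg4* -0.58, *Tagln* -0.61). In the other direction, the 6 markers of adipose stromal cells summed to 2845.3 to 3378.9 CPM in KIKO mice and 2276.5 to 2606.4 CPM in WT mice, and the 5 macrophage markers to 674.5 to 752.5 CPM in KIKO mice and 518.1 to 596.7 CPM in WT mice, with none passed in either list. The stromal sum is mostly *Dcn* (2775.8 CPM in KIKO mice, 2090.7 CPM in WT mice), the median of the 6 log2 fold changes was 0.18, and *Pi16* had -0.36 (SE 0.15). Both *Dcn* and *Lum* stand in this list and in that of the proteoglycans, so these lists are not independent. The macrophage sum is mostly *Csf1r* (478.6 CPM in KIKO mice, 373.3 CPM in WT mice). The median of the 5 macrophage log2 fold changes was 0.36, with *Cd68* at 0.57 (SE 0.15). The part of these cell types in the members' values was not tested. The 6 adipocyte markers were all present, at 19282.0 to 23304.9 CPM in KIKO mice and 16996.0 to 20920.7 CPM in WT mice. Of these 1 had a log2 fold change below 0, the median was 0.15 and none passed. The smallest adjusted p among them was that of *Adipoq* (log2 fold change 0.54, SE 0.15, adjusted p = 0.102 from edgeR). For the epididymis, 4 of 5 markers were at 0 in all libraries. Of the mesothelial markers 1 of 5 rose (*Krt19*, log2 fold change 1.15) and of the mast cell markers 2 of 5 rose (*Cpa3*, 1.58, and *Cma1*, 1.22). The other 3 mast cell markers, *Kit* (-1.24, adjusted p = 0.0942 from edgeR), *Mcpt4* (-0.39) and *Tpsb2* (-0.34), had log2 fold changes below 0, and the list's median was -0.34. The groups did not overlap for *Kit*, as for 4.56% of all genes tested in this direction. Each of the 3 calls was lost without KIKO 4, WT 2 or WT 4 (adjusted p from edgeR of 0.0662 to 0.152). The call on *Krt19* was also lost without KIKO 1 (0.122) or KIKO 2 (0.0582), and that on *Cma1* without KIKO 1 (0.0781). Few markers of other cells could be tested, and none of those passed: 1 of 5 for T cells, 3 of 4 for B cells, 1 of 4 for neutrophils, 3 of 3 for red blood cells and 1 of 4 for skeletal muscle. The tested neutrophil marker *S100a8* had 13.6 CPM in KIKO mice and 13.5 CPM in WT mice on average (log2 fold change 0.02, SE 0.31). The untested neutrophil marker *S100a9* had 2.36 CPM in KIKO mice and 0.80 CPM in WT mice on average, from 29 counts in KIKO mice and 10 counts in WT mice.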

How the data were processed

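RNA of vWAT from 4 KIKO and 4 WT mice was sequenced by the authors. The deposited count table holds raw counts per Ensembl gene, and a second deposited table holds log2 values made after scaling each library by its own size factor and adding 1. Per the labels and the study's methods, reads were trimmed with Trimmomatic and aligned to GRCm38 with HISAT2, and the methods add StringTie for the count matrices. The annotation release and the strand setting are not given in the sources used here, and kit and instrument differ between the methods (TruSeq, NextSeq) and the labels (NEGEDIA, NovaSeq). Symbols and positions came from GENCODE, which held 31011 of the 31053 genes.

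Genotype was tested on the counts with edgeR 4.0.16 in R 4.3.3 (TMM, filterByExpr, quasi-likelihood test, genotype as the only term). Adjusted p is the Benjamini-Hochberg value over 11080 genes, passed under 0.05, and each SE was derived from the fold change and its test statistic. For single genes an exact 2-sided permutation test of mean log2 CPM (prior count 2) over 70 assignments was run, with a smallest p of 0.0286. All members are named, as are the genes that passed and up to 3 with the smallest adjusted p in each list of partners and markers, and the 3 genes most alike to each of 3 members. Members and lists were chosen with earlier results of these data known. Alternatives were other normalizations and filters, a robust prior, DESeq2 1.42.0, limma-voom and limma-trend (limma 3.58.1), a replicate block, a length and GC correction with mgcv 1.9.3, and leaving out each mouse. The steps were tested on simulated data. The number in the sample titles did not pair the mice, and no 2 libraries of a group were duplicates (chi-square per gene of at least 3.81). The gene targeted in KIKO mice is not reported here.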

Additional observations from a re-analysis of the deposited data

Results flagged for a closer look

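In 3 of the 18 sets of 4 mice (9 members in both groups) 1 mouse lay apart from the other 3 by more than Dixon's 95% critical value, and chance gives about 1 in 20. *Adamts12* had 48.4 CPM in KIKO 2, where the next KIKO mouse had 31.3 CPM. *Adamts7* had 0.293 CPM in KIKO 4, the worth of 1 count, where the next KIKO mouse had 1.94 CPM. *Adamts1* had 70.1 CPM in WT 1, where the next WT mouse had 32.5 CPM.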

How the results depend on the processing

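Of 160 pairs of a tested member and an alternative, 150 kept direction and side of the threshold, 5 passed, 4 changed sign and 1 (*Adamts4* in DESeq2) kept its direction with no adjusted p. *Adamts1* changed sign without WT 1, in a range of -0.29 to 0.27 over the fits with 1 mouse left out, and *Adamts2* changed sign with the length and GC correction (0.0395) and without WT 3 (0.0597) or WT 4 (0.0246), in a range of -0.17 to 0.06. The cause was not tested. Against 75 genes called (31 higher, 44 lower) and 0 members, the fit with no filter on low counts called 382 genes and 2 members (*Adamts9* and *Adamts12*). DESeq2 called 260 genes and 1 member, limma-voom 40 genes, limma-trend with a pseudocount of 1 45 genes, and the length and GC correction 29 genes. The replicate block called 0 genes (1427 at an unadjusted p under 0.05), so that no member could cross the threshold with it. Fits with 1 mouse left out called 0 to 654 genes and 0 to 2 members. With library totals in place of TMM, 18 genes were higher and 49 lower, and *Timp3* was called (lower) in place of *Fmod*. Of the 51 tested genes in the lists of partners, 1 was called, against 6 with no filter, 3 with the robust prior, 8 in DESeq2, 0 with the replicate block, 0 with the length and GC correction, 0 in limma-voom, 0 in limma-trend with a pseudocount of 1, 0 with a pseudocount of 8, and 0 to 8 with 1 mouse left out. Same-numbered mice of the groups correlated in their deviations at -0.152, -0.133, -0.113 and 0.0285 for numbers 1 to 4, and not every mouse correlated best with its own number, so the numbers were not taken to pair them. With the authors' size factors in place of TMM, 9 of 9 log2 ratios of mean levels shifted by less than the spread between WT mice. At 18 to 52 counts per library, depth limits *Adamts4* most among the tested members, and 4 mice per group limit all of them.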
